A study of Mus musculus with 12 samples.

Results

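The clock genes described here are Per1, Per2, Per3, Cry1, Cry2, Clock, Nr1d1, Nr1d2, Dbp and Tef, followed through every probe that the array's probe annotation assigns to one of them. They were taken by name and not by their values, though with earlier results of these data known. The bead array carried 20 such probes among 45281, and all 10 genes had at least 1. Signal above background on at least 4 of the 10 arrays used in the main comparisons let 16 of these probes be tested, among 23260 probes and 11585 named genes, and each of the 10 genes kept at least 1 tested probe.

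Total RNA came from 1 mm punches through both amygdalae, from male mice of the C57Bl/6J strain, 10 weeks of age. The IMO_FC group (4 arrays) had been immobilized, a strong stressor for rodents, before fear conditioning, in which a neutral cue comes to predict an aversive event, and was taken 2 h after conditioning. The FC group (4 arrays) was conditioned without immobilization and taken 2 h afterwards, and the HC group (4 arrays) stayed in the home cage. All groups share strain, sex, age and tissue. The time of day of tissue collection and the interval between immobilization and conditioning are not given in the sources used here. Whether every array came from its own animal is not stated, and the p-values therefore reflect the spread among arrays, which may be technical. In punches of whole tissue, fewer cells of a type and less RNA per cell cannot be told apart.

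In mammalian cells the clock is a loop of transcription. CLOCK and its partner BMAL1 (encoded by Arntl) bind E-box DNA and switch on the Per and Cry genes, whose proteins return to the nucleus and repress CLOCK and BMAL1. REV-ERBα and REV-ERBβ (Nr1d1 and Nr1d2) form a second loop by repressing Arntl, and DBP and TEF carry the rhythm to output genes through D-box DNA, which is also found in Per promoters. Forebrain regions such as the amygdala hold clocks of their own that are set by the suprachiasmatic nucleus and by glucocorticoid hormone. Per1 has a further role, as it is switched on directly by the hormone-bound glucocorticoid receptor and by neuronal activity, which makes it the member closest to the stress and conditioning that the groups differ in.

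The members' promoters were searched for the letters that clock factors are known to bind, and the stretches are shown for the members whose windows hold an E-box or a D-box. Windows of 300 bases around a gene's start, most of each lying before it (RefSeq, GRCm38.p6), were matched by symbol for 9 of the members, Per2 not being among them, with 13 windows in all. The E-box CACGTG, which reads the same on both strands, was present for 3 of those 9 genes, against 8.09% of all 27025 genes with a window. The D-box (TTATGTAA, its reverse TTACATAA, or TTACGTAA) was present for 1 of the 9, against 1.23% of all genes. The cAMP response element TGACGTCA, through which activity-regulated factors act, was found for none of the 9, against 2.03% of all genes. The short element AGGTCA (or its reverse TGACCT), to which REV-ERB and ROR proteins bind when the flanking bases fit, was found for 3 of the 9 (Per1, Clock and Nr1d2), against 18.1% of all genes. A match is a description of these letters and not a site shown to be bound, and searches covered only these windows. Motifs are in capitals, each stretch reads 5′ to 3′ on the gene's strand, and all lie before the gene's start.
Per1 E-box, chr11:69098766-69098805, plus strand: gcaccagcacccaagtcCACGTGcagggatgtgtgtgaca
Cry1 E-box, chr10:85185092-85185131, minus strand: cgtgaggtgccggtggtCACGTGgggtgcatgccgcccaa
Tef E-box, first start, chr15:81802529-81802568, plus strand: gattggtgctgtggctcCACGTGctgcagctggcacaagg
Tef E-box, second start, chr15:81811259-81811298, plus strand: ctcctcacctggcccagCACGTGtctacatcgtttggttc
Per3 D-box, farther from the start, chr4:151044846-151044887, minus strand: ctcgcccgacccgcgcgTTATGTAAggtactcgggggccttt
Per3 D-box, nearer to the start, chr4:151044799-151044840, minus strand: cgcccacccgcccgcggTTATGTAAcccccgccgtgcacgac

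FC 1 and FC 3 stood apart from the other arrays before any group was compared. They had signal above background (detection p under 0.05) for 11.69% and 15.94% of all probes, against 38.97% to 50.7% on the other 10. For the clock probes the count was 3 and 5 of 20 on FC 1 and FC 3, 14 and 15 on FC 2 and FC 4, 12 to 17 on the IMO_FC arrays and 15 or 16 on the HC arrays. The main comparisons therefore use 10 arrays, with 4 IMO_FC, 2 FC and 4 HC, and the differences and counts that use FC are given with all 12 arrays too. IMO_FC 1 was weaker than the remaining arrays (38.97% detected), and it held the lowest or the highest of the 10 normalized values for 9 of the 16 tested clock probes and for 56.2% of all tested probes. Among markers, neuronal and central amygdala genes had a tested probe for 4 of 4 genes each, striatal genes for 3 of 4 and suprachiasmatic genes for 1 of 5, namely Vip, which cortical and amygdalar interneurons also express. Of 4 choroid plexus genes 3 were tested. In IMO_FC against HC, Ttr and Aqp1 stood at log2 differences of −2.95 and −2.22, and Kl at 0.30. Aqp1 was detected on 5 of the 10 arrays. Other lists held differences too, some in opposite directions within a list. Tac2 and Prkcd (central amygdala) stood at 1.06 and −0.99, and Cx3cr1 and C1qa (microglia) at −0.78 and 0.44. Hba-a1 (blood) stood at 0.68. In that comparison 2 tested central amygdala genes were higher and 2 lower, 2 microglia genes higher and 1 lower, and 2 blood genes higher. None of the named markers passed limma's adjusted test, and their part in any difference below was not tested.

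**Figure D1:**
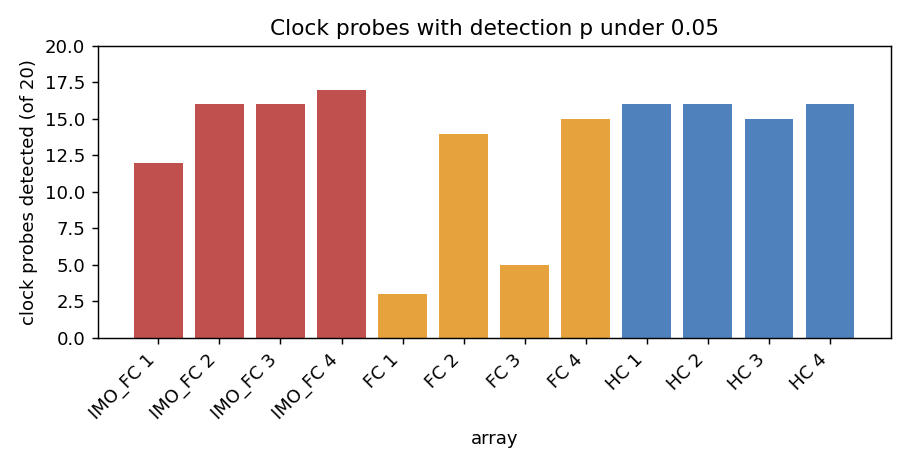
Number of the 20 clock gene probes with detection p under 0.05 on each of the 12 arrays (IMO_FC red, FC orange, HC blue). FC 1 and FC 3 detected 3 and 5 probes, and the other arrays 12 to 17.

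On the weak arrays themselves, the clock probes did not fade alike. Tef was detected on both, with deposited signals of 248.6 on FC 1 and 812.3 on FC 3, against 1018 and 866.1 on FC 2 and FC 4. Dbp was also detected on both, at 144.5 and 131.4, against 394 and 373.9. Cry2, at 496.7 and 576.1 on FC 2 and FC 4, was not above background on FC 1 and FC 3 (33.9 and 56.5), and neither was Nr1d1 (36.2 and 54.4, against 577.1 and 296). One Nr1d2 probe (ILMN_2602387) read 484.7 on FC 3, the highest of its 12 signals, while the brighter Nr1d2 probe (ILMN_2798993) read 153.6 there against 836.5 to 2064 on the 10 other arrays. The Nr1d2 probes thus moved in opposite directions on FC 3.

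No clock gene passed the test in any comparison. In IMO_FC against HC, limma's test with Benjamini-Hochberg adjustment over all 23260 probes called 0 of the 16 clock probes, where the background was 0% of all probes (lowest adjusted p 0.999). At unadjusted p under 0.05 there were 2 of 16, both lower in IMO_FC, against 3.17% of all tested probes. The arrays of IMO_FC and HC overlapped for all 16, against 2.45% of all probes without overlap. With each gene stood for by its brightest tested probe, 4 of the 10 were higher and 6 lower in IMO_FC, with a median log2 difference of −0.025, against −0.022 over all 11585 genes. The 10 differences ran from −0.30 to 0.28, and each was smaller than the range over the 4 HC arrays. Over the 16 tested probes this held for 14. A range is a wide measure beside a difference of means, and the share over all probes was not taken, so this is no test. On all 12 arrays, where the normalization changes with FC 1 and FC 3, 0 of 16 had unadjusted p under 0.05, against 0.4% of all, and 0 did not overlap, against 2.44% of all.

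In FC against HC, on 2 and 4 arrays, 0 of 16 clock probes were called (0% of all probes, lowest adjusted p 0.9999), and 1 had limma's unadjusted p under 0.05, against 3.46% of all. Groups did not overlap for 3 of 16, against 11.3% of all probes. These were a pair of Per1 probes, lower in FC, and 1 Clock probe, higher in FC. Of the 10 genes 3 were higher and 7 lower in FC, with a median of −0.14, against −0.011 over all genes. Once FC 1 and FC 3 were included limma called 0 of the 16 (lowest adjusted p over all probes 0.297), and 2 had unadjusted p under 0.05 against 16.7% of all. Groups then did not overlap for 1 of 16 (Per1 ILMN_2813484) against 3.76% of all, and 3 of the 10 genes were higher and 7 lower in FC, with a median of −0.87 against −0.34 over all genes. In IMO_FC against FC, 0 of 16 were called (0%, lowest adjusted p 1), 1 had unadjusted p under 0.05 against 3.5% of all, and groups did not overlap for 4 of 16 against 9.82% of all. Those were 1 probe each of Per1, Per3 and Nr1d2, higher in IMO_FC, and 1 of Clock, lower in IMO_FC. On all 12 arrays 0 were called, 2 had unadjusted p under 0.05 against 13.7% of all, and 1 (Per1 ILMN_2813484) did not overlap against 2.65% of all. Of the 10 genes 4 were higher and 6 lower in IMO_FC, with a median of −0.014 against −0.012 over all genes. Including FC 1 and FC 3 made this 7 higher and 3 lower, with a median of 0.91 against 0.31 over all genes. These comparisons share arrays, so that their values are given side by side and not as separate evidence. The 6 conditioned arrays (4 IMO_FC and 2 FC, each array with the same weight, so that IMO_FC counts for more) against HC gave 0 called (0%, lowest adjusted p 0.999), 1 of 16 at unadjusted p under 0.05 against 3.25% of all, and 0 without overlap against 0.791% of all. On 12 arrays limma called 0 and had 0 of 16 at unadjusted p under 0.05, against 1.88% of all, and 0 without overlap against 0.319% of all.

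**Figure D2:**
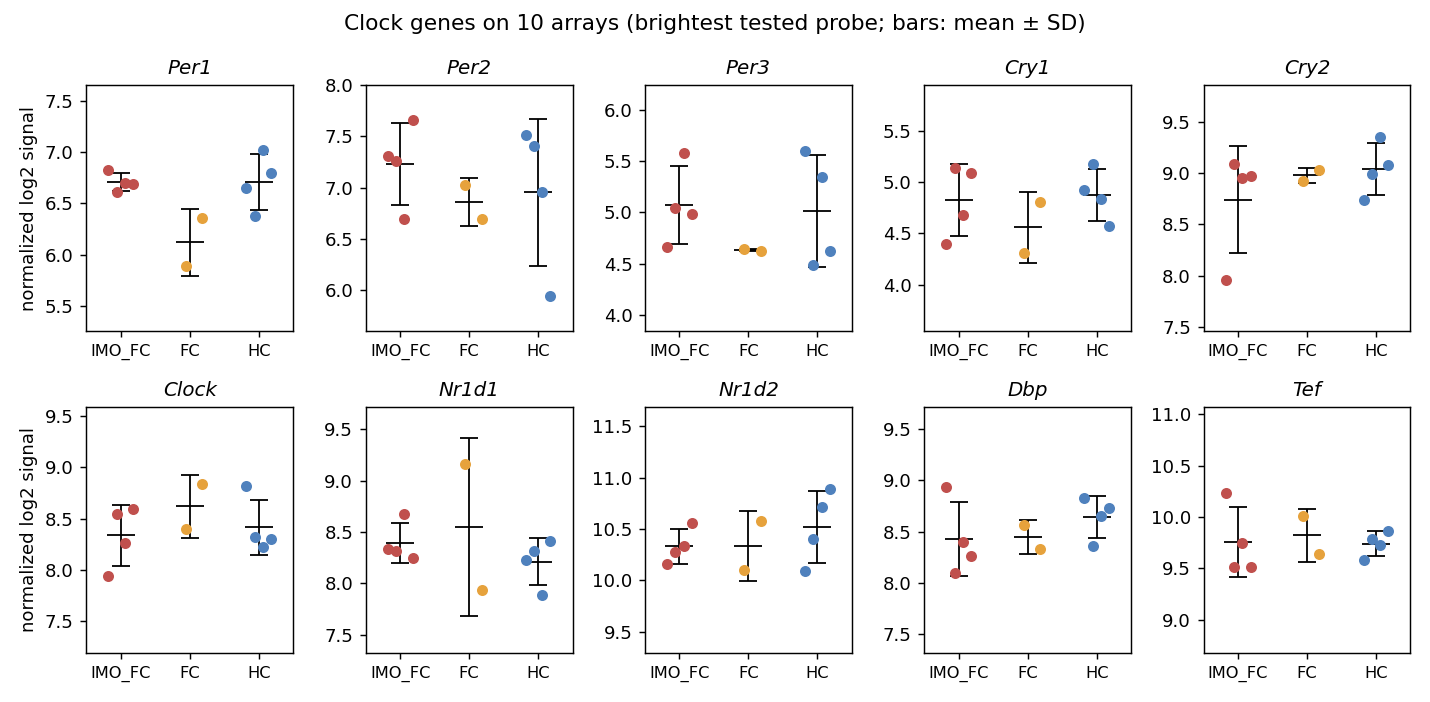
Normalized log2 signal of the brightest tested probe of each clock gene on the 10 arrays (IMO_FC red, n = 4, FC orange, n = 2, HC blue, n = 4; bars show mean ± SD). Every panel spans the same log2 distance, and the groups overlap in all panels except Per1, where both FC arrays lie below all other arrays, and Per3, where both FC arrays lie below the IMO_FC arrays.

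The negative limb of the loop begins with Per1. Its brightest probe (ILMN_2813484), detected on all 10 arrays, had normalized log2 signals of 6.83, 6.61, 6.70 and 6.69 on the IMO_FC arrays, 5.89 and 6.35 on the FC arrays, and 6.65, 6.37, 7.02 and 6.80 on the HC arrays. IMO_FC and HC arrays covered the same levels, and the FC arrays lay below both groups. The IMO_FC mean of 6.71 ± 0.09 matched the HC mean of 6.71 ± 0.27 (SD, n = 4 each), with a log2 difference of −0.0016 and a 95% interval of −0.47 to 0.47, or 0.999-fold (0.721 to 1.38). FC against HC gave −0.59 ± 0.261 (SE, n = 2 and 4), 0.666-fold, with exact two-sided permutation p = 0.133 and limma's adjusted p = 0.9999. IMO_FC against FC gave 0.59 ± 0.261, with exact p = 0.0667, the smallest that 2 against 4 arrays can give. Over 12 arrays these were −1.11 and 1.11, with exact permutation p = 0.0286 each and limma's adjusted p = 0.297 and 0.356, the probe being below background on FC 1 and FC 3.

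A second Per1 probe (ILMN_2813487) gave another pattern. It read 4.89, 6.11, 6.33 and 6.16 on the IMO_FC arrays, 5.77 and 6.07 on the FC arrays, and 7.15, 6.59, 6.31 and 6.48 on the HC arrays. All conditioned arrays but IMO_FC 3 lay below every HC array, and IMO_FC 3 exceeded the lowest HC array by a narrow margin. The 6 conditioned arrays against HC differed by −0.75 ± 0.304 (95% interval −1.42 to −0.074, lower in 6 of 6 than the HC mean), with exact permutation p = 0.0238 unadjusted and limma's adjusted p = 0.999 over all probes. IMO_FC against HC gave −0.76 ± 0.333 and FC against HC −0.71 ± 0.408. Leaving out IMO_FC 1, on which the probe was not detected, gave −0.54 ± 0.20 for the conditioned arrays and −0.43 ± 0.228 for IMO_FC against HC. Over 12 arrays the conditioned difference was −0.51 and that of FC against HC −0.31, where this probe read 8.57 on FC 1 and 4.43 on FC 3.

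The third Per1 probe (ILMN_1249997), annotated to a cDNA clone in place of the RefSeq transcript, was detected on 5 of 10 arrays. It stood at 0.33 ± 0.355 for IMO_FC against HC and at 0.51 ± 0.435 for FC against HC, on the opposite side of zero to the second probe. The FC difference was 0.044 over 12 arrays. The deposited signals ran from 54.9 to 88.8 in IMO_FC, 78.2 and 88.8 on FC 2 and FC 4, and 40.7 to 94.1 in HC. Across the 10 arrays ILMN_2813487 and ILMN_1249997 had Pearson r = −0.747, and ILMN_2813484 and ILMN_2813487 had 0.0609, given as descriptions of probes that share arrays and normalization. The Per1 probes gave no common direction.

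**Figure D3:**
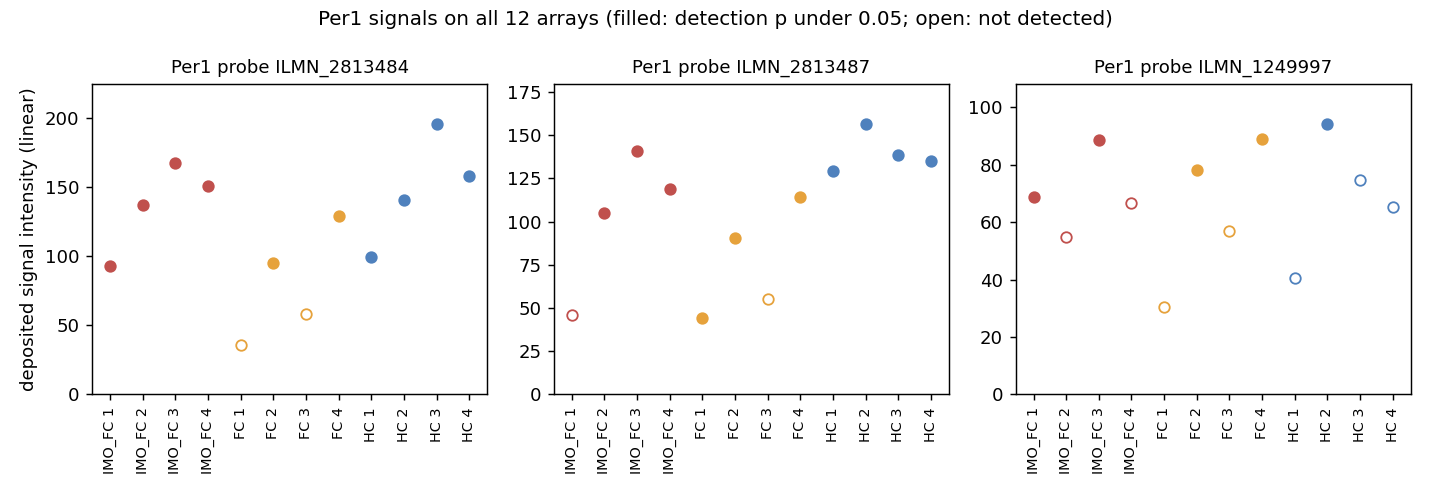
Deposited signal intensity (linear, unnormalized) of the 3 Per1 probes on all 12 arrays (IMO_FC red, FC orange, HC blue; filled points have detection p under 0.05, open points do not). ILMN_2813484 and ILMN_2813487 are detected on all HC arrays, while ILMN_1249997 is detected on 1 of them.

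The hormone targets measured beside Per1 were Fkbp5, whose product lowers the hormone affinity of the glucocorticoid receptor, Tsc22d3, a glucocorticoid-induced leucine zipper, and the kinase gene Sgk1. For the 6 conditioned arrays against HC, Tsc22d3 stood at 0.37 ± 0.168 with no overlap (10.0 to 10.3 against 9.69 to 9.98). Of all tested probes 0.791% had no overlap in this comparison. Fkbp5 stood at 0.52 ± 0.221 (7.51 to 8.21 against 6.96 to 7.60). Sgk1 stood at −0.32 ± 0.320. None of these passed limma's test (adjusted p = 0.999 each). In the same arrays the brightest Per1 probe stood at −0.20 ± 0.194, and at −0.56 over 12 arrays. Of 14 tested glucocorticoid targets 11 were higher and 3 lower in conditioned arrays, with a median of 0.24, against −0.018 over all genes, and 0 were called. Of 9 tested activity genes 4 were higher and 5 lower, with a median of −0.0080, and over 12 arrays 3 were higher and 6 lower, with a median of −0.097. On all 12 arrays 7 of the glucocorticoid targets were higher and 7 lower, with a median of 0.040, and Tsc22d3, Fkbp5 and Sgk1 stood at −0.65, −0.28 and −0.19. The deposited signals were 31.8 and 64.9 (Tsc22d3) and 35.2 and 51.3 (Fkbp5) on FC 1 and FC 3.

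Per2, the partner of Per1 in the repressor complex, was most spread in HC on its brightest probe but not on its second. Its brightest probe (ILMN_2987862) read 7.31, 7.26, 6.70 and 7.66 in IMO_FC, 7.03 and 6.70 in FC, and 7.51, 7.40, 6.95 and 5.94 in HC. HC 4 was the lowest of the 10 arrays, and both conditioned groups lay inside the HC range apart from IMO_FC 4. IMO_FC against HC gave 0.28 ± 0.354 (95% interval −0.50 to 1.06) and FC against HC −0.092 ± 0.434. The second tested probe gave −0.36 ± 0.328 and −0.11 ± 0.401, so that the probes differed in sign for IMO_FC against HC. Its SD was 0.57 in IMO_FC and 0.44 in HC, against 0.40 and 0.72 on the brightest probe. Over 12 arrays FC against HC stood at −0.97 and −0.89 on these probes. One more Per2 probe was detected on 2 of 10 arrays and was not tested.

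Per3, a period gene whose loss changes the mouse rhythm less than that of its relatives, was near background. Its tested probe (ILMN_1251591) is annotated to a cDNA clone in place of the RefSeq transcript. This probe was detected on 3 of 4 IMO_FC arrays, on neither FC 2 nor FC 4, and on 2 of 4 HC arrays. It averaged 5.07 ± 0.38 in IMO_FC (n = 4), 4.63 ± 0.013 in FC (n = 2) and 5.01 ± 0.54 in HC (n = 4, all SD). A further Per3 probe, annotated to the RefSeq transcript, was detected on 3 of 10 arrays and was not tested. IMO_FC against HC stood at 0.057 ± 0.301 and FC against HC at −0.38 ± 0.369. The FC values sit at the background level and bear no order. With FC 1 and FC 3 the FC difference was 0.44, the probe reading 7.66 on FC 3.

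The cryptochromes, the stronger repressors of CLOCK and BMAL1, differed in how well they could be read. Cry1 was detected on 2 of 4 IMO_FC arrays, 0 of 2 FC arrays and 3 of 4 HC arrays, and averaged 4.83 ± 0.35, 4.56 ± 0.35 and 4.88 ± 0.25 in those groups (SD). IMO_FC against HC gave −0.049 ± 0.247 (95% interval −0.59 to 0.50). Cry2 had 1 probe detected on 2 of 10 arrays and not tested, and 1 (ILMN_2665681) detected on all 10, which read 7.96, 9.09, 8.95 and 8.97 in IMO_FC, 8.92 and 9.03 in FC, and 8.74, 8.99, 9.36 and 9.08 in HC. Apart from IMO_FC 1 all conditioned arrays lay inside the HC range. IMO_FC against HC was −0.30 ± 0.277, and −0.037 ± 0.192 without IMO_FC 1. FC against HC was −0.063 ± 0.340 on the 10 arrays and −2.19 with all 12, where FC 1 and FC 3 read 4.44 and 4.52 at background (limma's adjusted p = 0.9999 and 0.297).

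Clock, the activator of the loop, had 3 tested probes, each detected on all 10 arrays. The brightest (ILMN_2610973) read 7.95, 8.55, 8.26 and 8.59 in IMO_FC, 8.40 and 8.84 in FC, and 8.81, 8.32, 8.23 and 8.30 in HC, and the groups overlapped throughout. IMO_FC against HC gave −0.080 ± 0.237 (0.946-fold, 95% interval 0.658 to 1.36) and FC against HC 0.20 ± 0.290, or −0.78 over 12 arrays. The middle probe (ILMN_2589603) read 6.73, 7.36, 7.05 and 7.50 in IMO_FC, 7.67 and 7.65 in FC, and 7.77, 7.44, 7.80 and 7.80 in HC. IMO_FC 4 alone of its group reached the HC range, the difference from HC being −0.54 ± 0.223 (exact p = 0.0571, limma's adjusted p = 0.999), and −0.39 ± 0.189 without IMO_FC 1. The dimmest probe (ILMN_2600964) went the other way, at 0.26 ± 0.302 for IMO_FC against HC and 0.69 ± 0.370 for FC against HC. On it both FC arrays, at 6.60 and 6.69, lay above the highest HC array at 6.18 (exact p = 0.0667, the smallest possible). Once FC 1 and FC 3 were included this difference was −0.048, the groups overlapped and the exact permutation p was 0.971.

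Nr1d1 and Nr1d2 link the loop to metabolism and repress Arntl. Nr1d1 (ILMN_2749669) read 8.33, 8.31, 8.68 and 8.25 in IMO_FC, 9.16 and 7.93 in FC, and 8.22, 8.32, 7.88 and 8.41 in HC. FC 2 was the highest of the 10 arrays and FC 4 lay near the lowest, so the FC mean stands between unlike arrays. IMO_FC against HC was 0.18 ± 0.277 (95% interval −0.43 to 0.80), and FC against HC was 0.34 ± 0.339. Without FC 2 that FC difference was −0.28 and without FC 4 it was 0.95, and with all 12 arrays it was −1.46.

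Nr1d2 had 2 tested probes on every one of the 10 arrays. Its brighter probe (ILMN_2798993) ran from 10.2 to 10.6 in IMO_FC, stood at 10.1 and 10.6 in FC and ran from 10.1 to 10.9 in HC, and gave −0.19 ± 0.236 for IMO_FC against HC and −0.19 ± 0.289 for FC against HC, or −1.90 over 12 arrays for FC. The other probe (ILMN_2602387) read 8.26, 8.0, 8.35 and 8.32 in IMO_FC, 7.48 and 7.99 in FC, and 8.03, 7.92, 8.13 and 7.91 in HC. On this probe IMO_FC against HC was 0.23 ± 0.199 (exact p = 0.0857), on the other side of zero to the brighter probe. Both FC arrays lay below the IMO_FC arrays, by the narrowest of margins for FC 4. IMO_FC against FC was 0.50 ± 0.244 there (exact p = 0.0667, the smallest possible, limma's adjusted p = 1), against −0.0066 ± 0.289 on the brighter probe. Over 12 arrays these were 0.31 and 1.70.

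The output activators Dbp and Tef were the only members with a probe detected on all 12 arrays. Dbp, whose transcript swings widely over the day in many tissues, read 8.93, 8.10, 8.39 and 8.26 in IMO_FC, 8.56 and 8.33 in FC, and 8.83, 8.36, 8.65 and 8.73 in HC. IMO_FC 1 was the highest of all, while the other IMO_FC arrays lay in or below the lower part of the HC range. IMO_FC against HC was −0.22 ± 0.233 (0.858-fold, 95% interval 0.601 to 1.23), and −0.39 ± 0.188 without IMO_FC 1 (limma's adjusted p = 1). FC against HC was −0.20 ± 0.285 (0.871-fold, 0.563 to 1.35). With all 12 arrays it was 0.48, Dbp reading 10.1 and 9.05 on FC 1 and FC 3 after normalization although its deposited signals there were the lowest of the 12.

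Tef (ILMN_2676052) read 10.2, 9.51, 9.75 and 9.51 in IMO_FC, 10.0 and 9.64 in FC, and 9.58, 9.79, 9.73 and 9.86 in HC. IMO_FC 1 again held the highest value and the HC arrays spanned only 0.28. IMO_FC against HC was 0.013 ± 0.225 (1.01-fold, 95% interval 0.716 to 1.42) and FC against HC 0.084 ± 0.275 (1.06-fold, 0.696 to 1.62). The FC difference was 0.54 over 12 arrays. A second Tef probe, annotated to another transcript, was detected on 3 of 10 arrays and not tested.

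**Figure D4:**
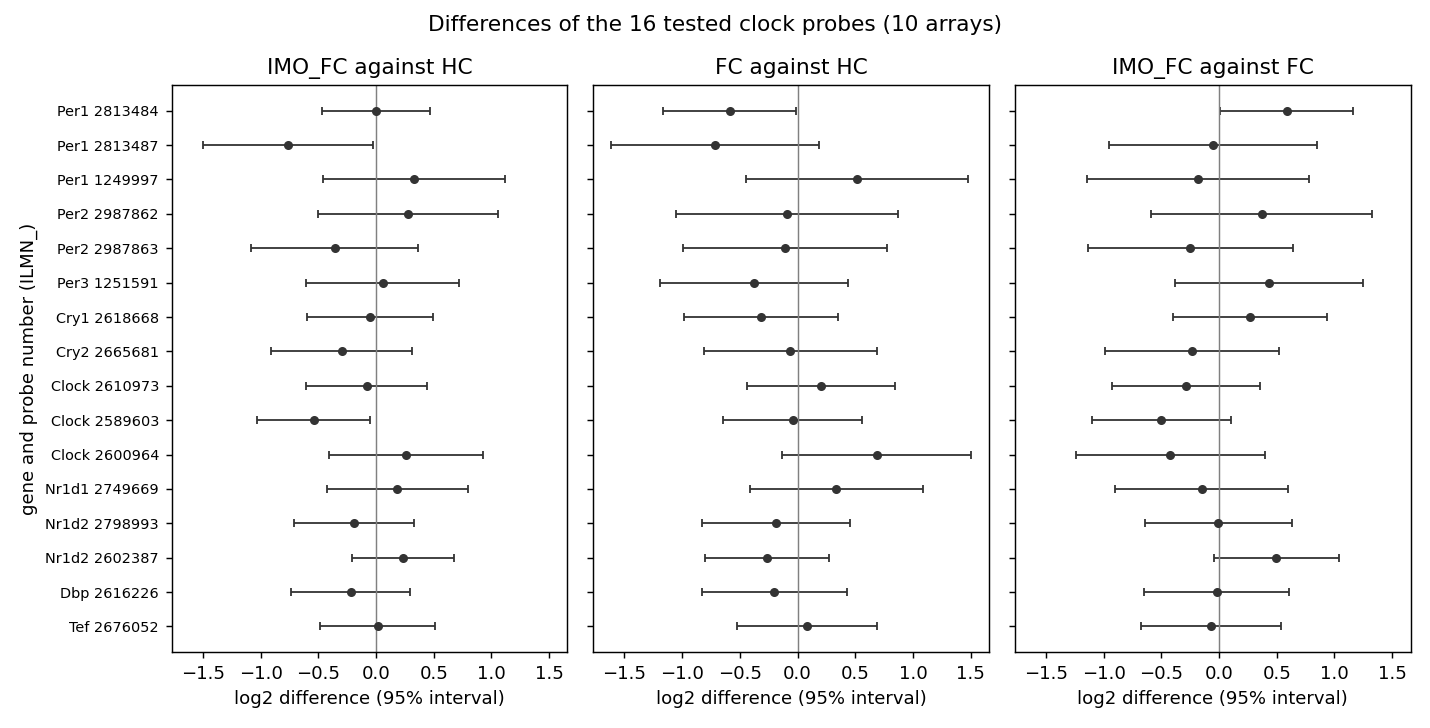
Log2 difference with its 95% interval (limma, for each probe by itself) for the 16 tested clock probes on 10 arrays, for IMO_FC against HC, FC against HC and IMO_FC against FC. Probes of one gene stand next to each other, and all 4 genes with several tested probes (Per1, Per2, Clock and Nr1d2) have probes on both sides of zero in IMO_FC against HC.

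Of 23 other clock genes, 18 had a tested probe. In IMO_FC against HC 6 were higher and 12 lower with a median of −0.050, in FC against HC 10 were higher and 8 lower with a median of 0.023, and in IMO_FC against FC 5 were higher and 13 lower with a median of −0.20. Over all genes these medians were −0.022, −0.011 and −0.012. Over 12 arrays FC against HC had 5 higher and 13 lower with a median of −0.22, and IMO_FC against FC 11 higher and 7 lower with a median of 0.12, where all genes had −0.34 and 0.31. None passed limma's test in any comparison. Unadjusted p-values of these genes were counted on the 10 arrays only. There only Fbxl21, a ubiquitin ligase subunit that stabilizes cryptochromes, had limma's unadjusted p under 0.05. It stood at 0.98 ± 0.412 in FC against HC (exact p = 0.133), from 6.39 on FC 2 and 4.83 on FC 4 against 4.38 to 5.12 in HC, and was detected on 5 of 10 arrays. The same difference was 0.71 over 12 arrays.

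Across the 10 arrays the clock genes did not vary as one. The highest Pearson r between brightest probes of 2 members was 0.643, for Dbp and Tef, and the lowest −0.805, for Cry1 and Tef. Among 11584 other genes the ones most like Per1 (ILMN_2813484) were Nkrf, Ppp1r14c, Tsen15, Nsmce2 and 1110004F10Rik, with r from 0.919 down to 0.876. Those most like Dbp were Eps15l1, Zdhhc3, Cstf1, Siva1 and Epb41l2, with r from 0.940 down to 0.882. No clock gene was among them. These values describe 10 arrays that share a normalization and a weak IMO_FC 1, and the genes were taken as the highest of many, so they carry no test.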

How the data were processed

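Per the file headers, the authors deposited unnormalized signal intensity and a detection p-value for each probe on 12 single-colour Illumina mouse arrays. They also deposited a normalized intensity table whose method is not given in the sources used here, taken on a log2 scale as an alternative only. Per the labels' protocols, biotinylated cRNA was made (Ambion MessageAmp) from RNA isolated on RNeasy columns. Tools were R 4.3.3 and limma 3.58.1. Signals were corrected with neqc from the detection p-values (offset 16, which makes fold changes of dim probes too small), quantile normalized and taken to log2. A probe was tested if 4 or more arrays of a fit gave it a detection p under 0.05. A linear model with a mean per group (7 residual degrees of freedom, 9 with all 12 arrays) was moderated by eBayes, and Benjamini-Hochberg adjustment covered every tested probe. FC 1 and FC 3 were left out for their low detection, known from earlier work on these files. Intervals are 95% and cover the spread between arrays. Exact permutation tests are two-sided and unadjusted. Their smallest values are 0.0286 for 4 against 4, 0.0667 for 2 against 4 and 0.00476 for 6 against 4. For the tested clock probes in the main fit there were 64 such tests. Further ones, not in that count, were run for untested clock probes, for genes of the other lists and with all 12 arrays.

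Of all probes 34885 had 1 gene symbol, 18 several and 10378 none. Old symbols were updated by gene identifier. The brightest tested probe, by mean normalized value over the 10 arrays, stands for a gene. All 10 members are named, with Fkbp5, Tsc22d3 and Sgk1. Also named are other clock genes with unadjusted p under 0.05 on the 10 arrays, and the 5 genes most like Per1 and Dbp by Pearson r. Ttr, Aqp1, Kl, Tac2, Prkcd, Cx3cr1, C1qa, Hba-a1 and Vip were named after their values were seen. The members, lists and tests were chosen with earlier results of these data known. The procedure was tested on simulated data. Alternatives are listed in the closing section, and 0 columns of sample values were left unused. The number of arrays limits the precision.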

Additional observations from a re-analysis of the deposited data

Results flagged for a closer look

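Of 32 groups of 4 arrays examined (IMO_FC and HC for each of the 16 tested clock probes), 5 had 1 array farther from the others than Dixon's 95% critical value allows. Chance flags about 1 in 20 groups of independent values, and these groups share the same arrays. By group, 2 of 16 clock probes were past the value in IMO_FC, against 14.5% of all tested probes, and 3 of 16 in HC, against 5.22%. On IMO_FC 1, the array with the fewest detected probes among the 10, Per1 (ILMN_2813487) stood at 4.89 with 6.11 as the nearest other value in its group, and Cry2 (ILMN_2665681) at 7.96 with 8.95 as the nearest. On HC 2, Per1 (ILMN_1249997) stood at 5.45 with 4.77 nearest, and Clock (ILMN_2589603) at 7.44 with 7.77 nearest. On HC 1, Clock (ILMN_2610973) stood at 8.81 with 8.32 nearest.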

How the results depend on the processing

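Under every alternative and with each array left out in turn, limma called 0 of the tested clock probes in the 4 comparisons. Over all probes it called 0 as well, except 1, 0, 2 and 3 when no filter was applied (conditioned arrays against HC, IMO_FC against HC, FC against HC, IMO_FC against FC). None of the differences had passed, and some changed sign, at the log2 values in brackets, for reasons that were not tested. With all 12 arrays these included larger differences, such as Nr1d1 and Per3 in FC against HC (0.34 and −0.38 on 10 arrays). With all 12 arrays these were, in conditioned arrays against HC Per2 (−0.35), Per3 (0.24), Clock (−0.43), Nr1d1 (−0.64), Dbp (0.13), in FC against HC Per3 (0.44), Clock (−0.78), Nr1d1 (−1.46), Dbp (0.48), in IMO_FC against FC Per3 (−0.39), Cry2 (1.90), Clock (0.70), Nr1d1 (1.64), Nr1d2 (1.70). With median scaling in place of quantiles these were, in conditioned arrays against HC Clock (−0.078), Tef (−0.025), and in IMO_FC against HC Cry1 (0.0096), Tef (−0.064). With array weights these were, in conditioned arrays against HC Tef (−0.054), in IMO_FC against HC Cry1 (0.030), Clock (0.052), Tef (−0.12), in IMO_FC against FC Nr1d2 (0.064). With the replicate block these were, in conditioned arrays against HC Clock (−0.0065), and in IMO_FC against FC Nr1d2 (0.096). With the mean of a gene's tested probes these were, in conditioned arrays against HC Per2 (−0.060), in IMO_FC against HC Per2 (−0.040), Nr1d2 (0.021), in IMO_FC against FC Nr1d2 (0.25). No sign changed without background correction, with the authors' normalized values, without or with a stricter filter (which left Per3 and Cry1 without a tested probe), or with an intensity trend and robust prior. With 1 array left out, the lowest and highest values of the results that changed sign were, in conditioned arrays against HC Per2 (−0.18 to 0.34), Per3 (−0.26 to 0.11), Clock (−0.067 to 0.15), Tef (−0.055 to 0.090). They were, in IMO_FC against HC Per1 (−0.11 to 0.10), Per2 (−0.059 to 0.47), Per3 (−0.12 to 0.26), Cry1 (−0.15 to 0.099), Clock (−0.17 to 0.054), Tef (−0.15 to 0.094). They were, in FC against HC Per2 (−0.43 to 0.094), Cry2 (−0.16 to 0.042), Clock (−0.014 to 0.42), Nr1d1 (−0.28 to 0.95), Nr1d2 (−0.43 to 0.056), Tef (−0.099 to 0.27). They were, in IMO_FC against FC Cry2 (−0.35 to 0.026), Nr1d1 (−0.77 to 0.46), Nr1d2 (−0.25 to 0.23), Dbp (−0.19 to 0.097), Tef (−0.25 to 0.11). The largest such shift was that of Nr1d1 in FC, where 1 array then stands for the group and is taken to vary like the others. Whether replicate numbers pair the arrays could not be decided. Deviations from the group mean correlated over 0.1 in 2 of 8 pairs with the same number and in 4 of 24 other pairs. The median correlations were 0.056 and −0.031. With 2 FC arrays in the fit, the deviations of one mirror those of the other, so these pairs are not independent. The replicate block is given for completeness.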
